A study of Mus musculus with 9 samples.

Results

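The small leucine-rich proteoglycans are extracellular matrix proteins built around a curved stack of leucine-rich repeats, and most carry chondroitin, dermatan or keratan sulphate chains. They bind collagen fibrils and set how these assemble, and some of them also hold growth factors of the TGF-beta family. In muscle they are made mainly by fibroblasts and by tendon cells, and little by the fibres themselves. The 10 genes described here were taken by symbol from the deposited count table, which lists 35275 genes. They are Bgn, Dcn and Aspn of class I, Lum, Fmod, Prelp, Kera and Omd of class II, Ogn of class III and Chad of class IV. All 10 were among the 13901 genes that passed the count filter. Bgn and Fmod were listed because they were higher with MDA-MB-231 EV in these same libraries, so their differences are given as a description with no test. The other 8 were added as the rest of the family.

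The libraries are poly-A RNA of the gastrocnemius, a calf muscle, from female NSG mice, an immunodeficient strain, aged 12 weeks and labelled wild type. Extracellular vesicles (EVs), membrane-bound particles shed by cells, were given through the tail vein at about 10 µg a dose, 2 doses a week for 5 weeks, and the muscle was taken 2 days after the last dose. The EVs came from the human breast cancer line MDA-MB-231 (5 libraries, MDA-MB-231 EV) or from MCF-10A, a non-tumorigenic human breast epithelial line (4 libraries, MCF-10A EV). Every mouse received EVs and no uninjected mice were analysed here, so the comparison does not say which EVs account for a difference. The labels do not say whether a library is 1 mouse or a pool, and the p-values measure only the spread between these libraries.

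Gene counts summed to between 19463570 and 24158088 per MDA-MB-231 EV library and between 13943465 and 25195826 per MCF-10A EV library. Muscle fibre transcripts dominated, with the 10 fibre markers summing to 141498 to 166517 CPM (counts scaled to library size with TMM factors) in MDA-MB-231 EV and to 182371 to 223715 CPM in MCF-10A EV. The 9 tendon markers summed to 711 to 1099 CPM in MDA-MB-231 EV and to 303 to 748 CPM in MCF-10A EV. Within MCF-10A EV, replicate 1 stood apart, with the lowest tendon marker sum of all 9 libraries. The 12 markers of fibroblasts and fibro-adipogenic progenitors summed to 2070 to 2662 CPM in MDA-MB-231 EV and to 1117 to 2432 CPM in MCF-10A EV. Transcripts of pancreatic islets, which are foreign to muscle, appeared in 5 libraries with Ins2 above 10 CPM (MDA-MB-231 EV replicates 1, 3 and 4 and MCF-10A EV replicates 2 and 3). Of the cartilage and bone markers, Matn1 was at 0 in every library, and Acan, Lect1, Bglap and Sp7 stayed under 1 CPM. The others reached more in their highest library: Col2a1 5.38, Sox9 5.05, Col9a1 2.41, Ibsp 2.23 and Matn3 1.12 CPM. Col2a1 and Sox9 were above 1 CPM in every library.

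Fmod and Chad, but not Bgn, had a Pearson r over 0.9 with tendon markers inside the groups. Neither relation passed adjustment (exact permutation, adjusted p = 0.120 for both). The r of Fmod was 0.595 without the 2 libraries farthest out in tendon markers. The sequences just upstream of Bgn, Fmod and Chad are shown for this contrast and because these 3 genes had the largest fold changes of the family. Each is the 250 bases before the transcription start in RefSeq (GRCm38.p6), 5′ to 3′ on the gene's own strand: chrX:73483351-73483600 (plus) for Bgn, chr1:134037004-134037253 (plus) for Fmod and chr11:94564797-94565046 (plus) for Chad. Capitals mark matches on either strand to a TATA box (TATAAA), a GC box (GGGCGG, or CCGCCC read from the other strand), an AP-1 site (TGANTCA) or an E-box (CANNTG).
Bgn: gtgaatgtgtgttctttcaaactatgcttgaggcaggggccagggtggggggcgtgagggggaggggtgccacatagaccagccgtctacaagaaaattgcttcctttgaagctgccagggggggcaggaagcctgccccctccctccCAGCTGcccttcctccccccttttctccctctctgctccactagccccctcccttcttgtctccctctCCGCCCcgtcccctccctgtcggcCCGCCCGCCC
Fmod: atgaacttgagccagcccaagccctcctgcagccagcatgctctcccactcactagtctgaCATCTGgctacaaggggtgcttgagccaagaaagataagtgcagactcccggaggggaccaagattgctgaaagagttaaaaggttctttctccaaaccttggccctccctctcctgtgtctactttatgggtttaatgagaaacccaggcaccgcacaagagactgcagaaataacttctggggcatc
Chad: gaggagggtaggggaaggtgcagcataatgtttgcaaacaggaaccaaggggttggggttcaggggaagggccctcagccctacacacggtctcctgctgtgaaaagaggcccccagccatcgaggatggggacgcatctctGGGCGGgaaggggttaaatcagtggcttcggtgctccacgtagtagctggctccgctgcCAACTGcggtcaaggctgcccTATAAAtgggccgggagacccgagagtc
The Bgn stretch held 3 GC boxes, of which the pair nearest the start overlap, at positions -10 to -5 and -6 to -1 from the start, and 1 E-box. The Fmod stretch held 1 E-box and none of the other 3 motifs. The Chad stretch held a TATA box at positions -28 to -23, 1 GC box and 1 E-box. Over 32807 mouse promoters of the same length, 12.4% held a TATA box, 32.7% a GC box, 6.75% an AP-1 site and 66.2% an E-box. Letters of this kind are a description and no evidence of binding. RefSeq promoters were matched for 8 of the 10 genes, all but Dcn and Lum.

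The family made up 0.187% to 0.215% of all gene counts in MDA-MB-231 EV libraries and 0.0850% to 0.150% in MCF-10A EV libraries. Summed over the 10 genes, the level was 1831 to 2074 CPM in MDA-MB-231 EV and 934 to 1524 CPM in MCF-10A EV. These groups did not overlap, but the sum holds Bgn and Fmod, both chosen for their difference, and Fmod supplied the largest count on average. Without Bgn and Fmod the sums overlapped, with MCF-10A EV replicate 2 above MDA-MB-231 EV replicates 3 and 5. In whole muscle, a change in the number of cells that make a transcript cannot be told apart from a change in transcript per cell.

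To compare genes with each other, levels per length were taken from the deposited FPKM (fragments scaled to gene length and library total). Dcn, which encodes decorin, and Fmod, which encodes fibromodulin, led the family at means over the 9 libraries of 242 ± 39.9 and 236 ± 89.3 FPKM (SD, n = 9). Chad and Bgn followed at 50.0 ± 23.8 and 45.9 ± 17.2 FPKM. Prelp had 33.0, Kera 23.6, Ogn 22.8, Lum 17.2 and Aspn 9.42 FPKM, and Omd was lowest at 1.68 FPKM. Of the 9 pairs of neighbours in this order, Fmod over Chad and Aspn over Omd held in all 9 libraries. Bgn over Prelp, Prelp over Kera, Ogn over Lum and Lum over Aspn held in 8 of 9. Chad exceeded Bgn in 6 of 9 libraries, and both Dcn over Fmod and Kera over Ogn held in 5 of 9, so these 3 pairs were not separated beyond their spread.

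The order of the leading pair differed between the groups. Fmod was at 306, 339, 281, 301 and 301 FPKM in MDA-MB-231 EV replicates 1 to 5, beside Dcn at 260.4, 279, 239, 310.0 and 263 FPKM. In MCF-10A EV replicates 1 to 4, Fmod was at 79.0, 156, 204 and 160.2 FPKM, beside Dcn at 184, 208, 228 and 206 FPKM. Fmod was thus the more abundant transcript in 4 of 5 MDA-MB-231 EV libraries, replicate 4 being the exception, and Dcn in all 4 MCF-10A EV libraries. Of the family's summed FPKM, Dcn took 30.9% to 35.4% in MDA-MB-231 EV and 36.7% to 51.0% in MCF-10A EV. Since Fmod was chosen for its difference, this exchange is a description.

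**Figure D1:**
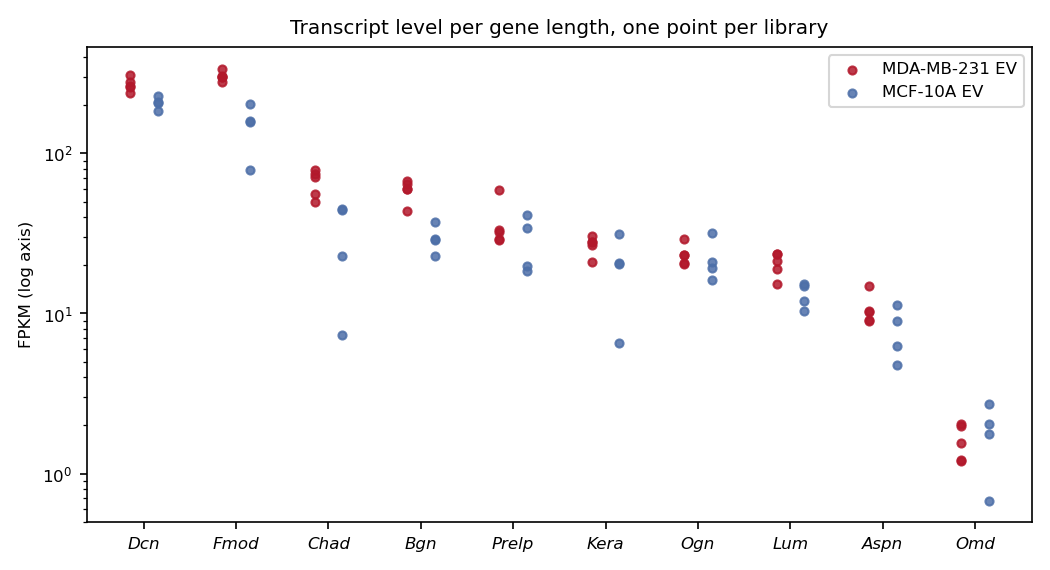
Deposited FPKM of the 10 genes on a log axis, one point per library, MDA-MB-231 EV left of MCF-10A EV, genes ordered by their mean over 9 libraries. Dcn and Fmod lie far above the rest, and Omd, with a mean of 1.68 FPKM, lies far below.

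Among all tested genes, 0 passed edgeR's quasi-likelihood test at a Benjamini-Hochberg adjusted p under 0.05 in either direction (0% higher and 0% lower), and limma voom called 0%. At an unadjusted p under 0.05, 827 genes (5.95%) were higher with MDA-MB-231 EV and 954 (6.86%) were lower, and the smallest adjusted p was 0.133. None of the 8 tested members passed in edgeR. Counting all 10 members as a description, 8 had a log2 fold change above 0, where 53.1% of all tested genes did. Their median log2 fold change was 0.32, beside 0.02 for all tested genes. The libraries did not overlap for 3 members, each higher in MDA-MB-231 EV (Bgn, Fmod and Dcn), where this held for 2.22% of all genes. No member was lower in every MDA-MB-231 EV library, against 3.17% of all genes. Bgn and Fmod were chosen from this same contrast, so nothing is read from these counts. DESeq2 called 57 genes higher (0.765%) and 171 lower (2.3%) of the 7447 to which it gave an adjusted p, with Lum as the only call among the 8 tested members.

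**Figure D2:**
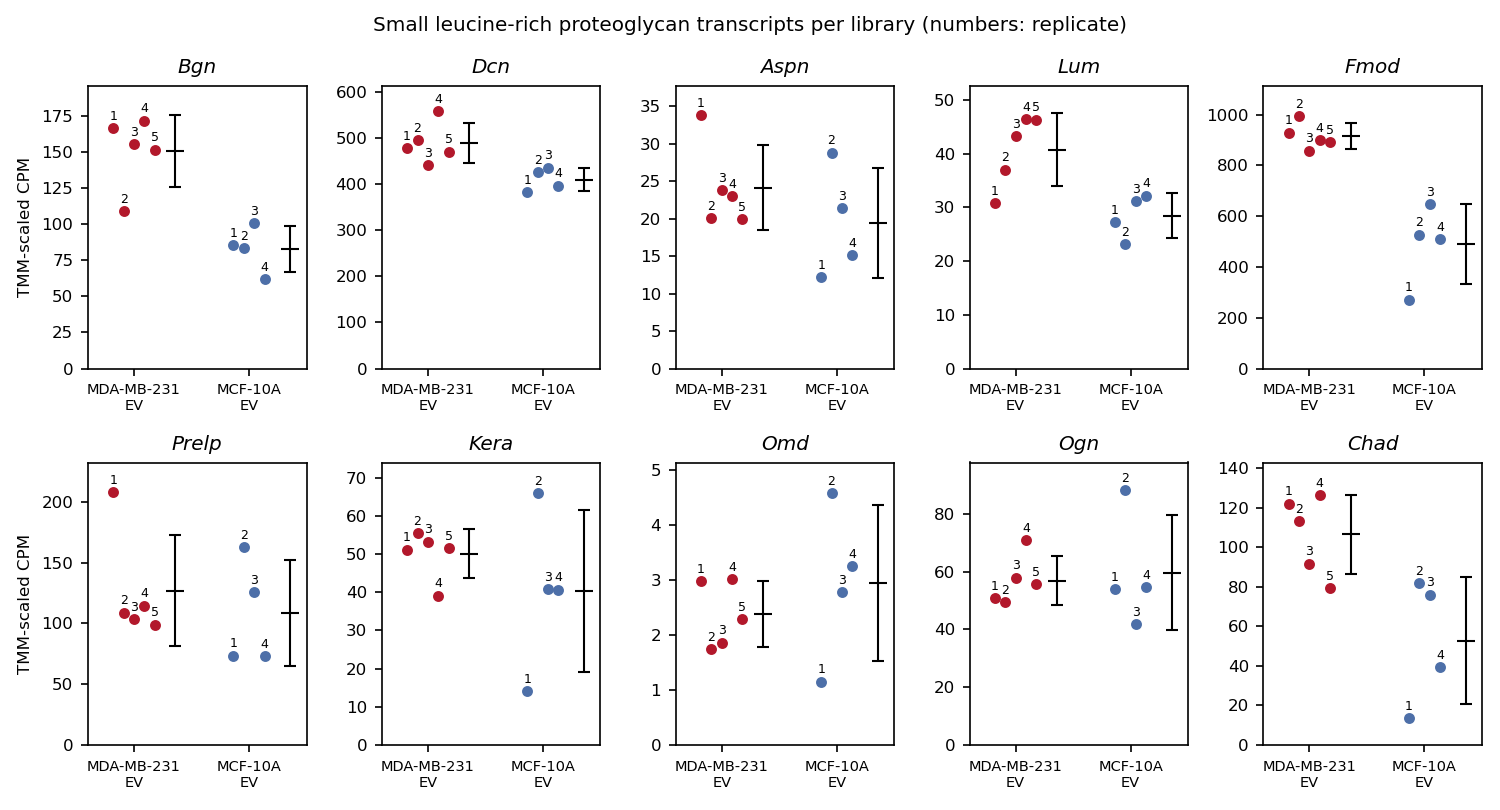
TMM-scaled CPM of each of the 10 genes by library, MDA-MB-231 EV left of MCF-10A EV, with points for libraries and bars for the mean and SD. Bgn, Fmod and Dcn show groups that do not overlap, while the other 7 do overlap.

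Class I holds biglycan, decorin and asporin. Bgn (ENSMUSG00000031375; mm10 chrX:73483602-73495933, plus strand) encodes biglycan, which carries chondroitin or dermatan sulphate chains and, in mouse muscle, binds the dystrophin complex. The MDA-MB-231 EV libraries had 167, 109, 156, 172 and 152 CPM of Bgn (replicates 1 to 5), and the MCF-10A EV libraries 85.7, 83.3, 101 and 62.2 CPM (replicates 1 to 4). Every MDA-MB-231 EV library lay above every MCF-10A EV library, and the closest were MDA-MB-231 EV replicate 2 and MCF-10A EV replicate 3. Means were 151 ± 24.8 CPM with MDA-MB-231 EV (SD, n = 5) and 83.0 ± 15.9 CPM with MCF-10A EV (SD, n = 4), which gave a log2 fold change of 0.86 ± 0.16 (SE). Leaving out each library in turn gave 0.75 to 0.97. It was 0.81 in the libraries without islet transcripts (2 MDA-MB-231 EV and 2 MCF-10A EV) and 0.84 in those with them (3 and 2).

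Dcn (ENSMUSG00000019929; chr10:97479500-97518162, plus strand) encodes decorin, which binds collagen fibrils, TGF-beta and myostatin. Dcn levels with MDA-MB-231 EV were 479, 495, 442, 559 and 471 CPM (replicates 1 to 5), and those with MCF-10A EV were 382, 425, 436 and 397 CPM (replicates 1 to 4). The groups did not overlap, though MDA-MB-231 EV replicate 3 lay only just above MCF-10A EV replicate 3. Means were 489 ± 43.6 CPM with MDA-MB-231 EV (SD, n = 5) and 410.2 ± 24.9 CPM with MCF-10A EV (SD, n = 4), which gave a log2 fold change of 0.25 ± 0.10 (SE). The difference did not pass in edgeR (adjusted p = 0.338) or in DESeq2 (adjusted p = 0.124). Over the 21 alternative settings its log2 fold change stayed between 0.19 and 0.39, the narrowest span of the 10 members.

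Aspn (ENSMUSG00000021388; chr13:49544443-49567557, plus strand) encodes asporin, which binds collagen and carries no glycosaminoglycan chain. The MDA-MB-231 EV libraries had 33.8, 20.1, 23.8, 23.0 and 19.9 CPM of Aspn (replicates 1 to 5), and the MCF-10A EV libraries 12.2, 28.8, 21.4 and 15.1 CPM (replicates 1 to 4). The groups overlapped widely, and the spread within each was as large as the gap between them. Its log2 fold change was 0.32 ± 0.24 (SE; edgeR adjusted p = 0.586). Leaving out MDA-MB-231 EV replicate 1 gave 0.17, and leaving out MCF-10A EV replicates 1 or 2 gave 0.16 and 0.57.

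Class II holds lumican, fibromodulin, PRELP, keratocan and osteomodulin. Fmod (ENSMUSG00000041559; chr1:134037254-134048277, plus strand) encodes fibromodulin, a keratan sulphate proteoglycan abundant in tendon that binds collagen I at a site shared with lumican. Fmod levels with MDA-MB-231 EV were 929, 994, 858, 899 and 893 CPM (replicates 1 to 5), and those with MCF-10A EV were 271, 528, 647 and 511 CPM (replicates 1 to 4). Within MDA-MB-231 EV the libraries were close together, and all lay above the MCF-10A EV libraries, of which replicate 1 was far lower than the others. Means were 915 ± 51.3 CPM with MDA-MB-231 EV (SD, n = 5) and 489 ± 158 CPM with MCF-10A EV (SD, n = 4), which gave a log2 fold change of 0.90 ± 0.20 (SE). It was 0.70 when MCF-10A EV replicate 1 was left out and 1.07 when replicate 3 was. It was 1.27 in the libraries without islet transcripts (2 against 2), which include the low MCF-10A EV replicate 1, and 0.61 in those with them (3 against 2), which do not.

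Lum (ENSMUSG00000036446; chr10:97565501-97572703, plus strand) encodes lumican, which regulates fibril diameter. The MDA-MB-231 EV libraries had 30.8, 37.1, 43.2, 46.4 and 46.3 CPM of Lum (replicates 1 to 5), and the MCF-10A EV libraries 27.3, 23.2, 31.2 and 32.2 CPM (replicates 1 to 4). Only MDA-MB-231 EV replicate 1 fell inside the MCF-10A EV range. Means were 40.8 ± 6.72 CPM with MDA-MB-231 EV (SD, n = 5) and 28.5 ± 4.12 CPM with MCF-10A EV (SD, n = 4), which gave a log2 fold change of 0.52 ± 0.14 (SE). This passed in DESeq2 (adjusted p = 0.0480), where 0.765% of genes were called higher, and not in edgeR (adjusted p = 0.260). Leaving out MDA-MB-231 EV replicate 1 gave a log2 fold change of 0.60, and leaving out MCF-10A EV replicate 2 gave 0.43.

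Prelp (ENSMUSG00000041577; chr1:133910304-133921414, minus strand) encodes PRELP, which can link basement membranes to collagen. Prelp levels with MDA-MB-231 EV were 208, 109, 104, 115 and 99.2 CPM (replicates 1 to 5), and those with MCF-10A EV were 73.6, 163, 126 and 73.1 CPM (replicates 1 to 4). MDA-MB-231 EV replicate 1 was far above the other 4 libraries of its group. The log2 fold change was 0.22 ± 0.29 (SE; edgeR adjusted p = 0.779) and became -0.023 without that library. Leaving out MCF-10A EV replicates 1, 2 or 4 gave 0.076, 0.48 and 0.074.

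Kera (ENSMUSG00000019932; chr10:97607205-97613688, plus strand) encodes keratocan, best known as a keratan sulphate proteoglycan of the cornea. The MDA-MB-231 EV libraries had 51.1, 55.6, 53.3, 39.1 and 51.5 CPM of Kera (replicates 1 to 5), and the MCF-10A EV libraries 14.0, 65.9, 40.8 and 40.7 CPM (replicates 1 to 4). Both the lowest and the highest library belonged to MCF-10A EV. The log2 fold change was 0.32 ± 0.34 (SE; edgeR adjusted p = 0.719), 0.032 when MCF-10A EV replicate 1 was left out and 0.65 when replicate 2 was.

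Omd (ENSMUSG00000048368; chr13:49582766-49592609, plus strand) encodes osteomodulin, a keratan sulphate proteoglycan known from bone. It was the scarcest member, on 37 to 74 counts per MDA-MB-231 EV library and 21 to 69 per MCF-10A EV library. Omd levels with MDA-MB-231 EV were 2.98, 1.75, 1.86, 3.01 and 2.28 CPM (replicates 1 to 5), and those with MCF-10A EV were 1.16, 4.59, 2.78 and 3.25 CPM (replicates 1 to 4). The groups overlapped and the log2 fold change was -0.29 ± 0.34 (SE; edgeR adjusted p = 0.743), -0.018 when MCF-10A EV replicate 2 was left out and -0.56 when replicate 1 was. Leaving out MDA-MB-231 EV replicate 2 gave -0.19.

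Class III is represented by Ogn (ENSMUSG00000021390; chr13:49608071-49624500, plus strand), which encodes osteoglycin, also called mimecan. The MDA-MB-231 EV libraries had 50.7, 49.3, 57.9, 70.9 and 55.6 CPM of Ogn (replicates 1 to 5), and the MCF-10A EV libraries 53.8, 88.1, 41.9 and 54.7 CPM (replicates 1 to 4). The MDA-MB-231 EV libraries lay wholly inside the MCF-10A EV range. The log2 fold change was -0.065 ± 0.19 (SE; edgeR adjusted p = 0.911), and it was 0.18 when MCF-10A EV replicate 2 was left out and 0.078 with unscaled library sizes. That scaling moved the median of all tested genes from 0.02 to 0.15, so relative to the median Ogn stayed below. Leaving out any other single library gave values between -0.20 and -0.0081.

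Class IV is represented by Chad (ENSMUSG00000039084; chr11:94565047-94569127, plus strand), which encodes chondroadherin, a cartilage and tendon protein that binds collagen and integrins. Chad levels with MDA-MB-231 EV were 122, 113, 91.7, 126 and 79.4 CPM (replicates 1 to 5), and those with MCF-10A EV were 13.6, 81.8, 76.0 and 39.5 CPM (replicates 1 to 4). MCF-10A EV replicate 1 was far below all others, and MDA-MB-231 EV replicate 5 fell just inside the MCF-10A EV range. Means were 106 ± 20.2 CPM with MDA-MB-231 EV (SD, n = 5) and 52.7 ± 32.1 CPM with MCF-10A EV (SD, n = 4). Its log2 fold change of 1.02 ± 0.44 (SE) was the largest in the family and did not pass in edgeR (adjusted p = 0.379) or in DESeq2 (adjusted p = 0.229). It was 0.70 without MCF-10A EV replicate 1, 1.85 in the libraries without islet transcripts, again including that replicate, and 0.52 in those with them.

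**Figure D3:**
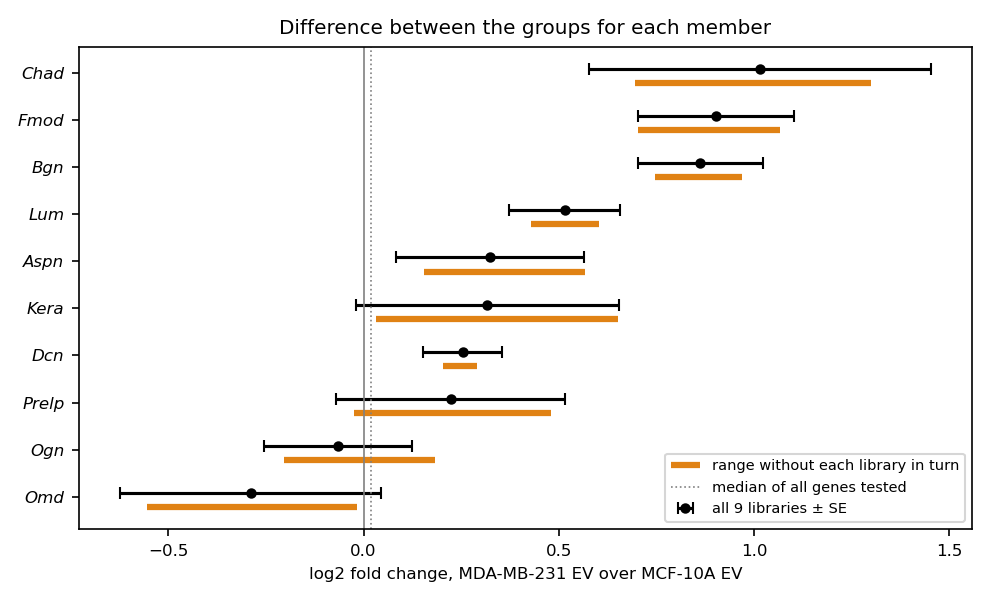
Log2 fold change, MDA-MB-231 EV against MCF-10A EV, for each member with its SE, and the range when each library is left out in turn. The estimates run from -0.29 for Omd to 1.02 for Chad, and those of Prelp and Ogn cross 0 when 1 library is left out.

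Most members sit beside another member in the genome, and ratios inside a library were compared for some neighbours and for other pairs. On chromosome 10, Dcn, Lum and Kera lie in a row with gaps of 47338 and 34501 bases, followed by Epyc, and no listed gene lies between them. On chromosome 13, Aspn, Omd and Ogn lie in a row after Ecm2 with gaps of 15208 and 15461 bases. On chromosome 1, Prelp and Fmod are 115839 bases apart, with 2 listed genes between them. Lum to Dcn, as log2 of FPKM, was -3.73 ± 0.26 (SD, n = 5) in MDA-MB-231 EV and -4.00 ± 0.24 (SD, n = 4) in MCF-10A EV. The next pair, Kera to Lum, spread more, at 0.39 ± 0.38 (SD, n = 5) in MDA-MB-231 EV and 0.41 ± 1.01 (SD, n = 4) in MCF-10A EV. Omd to Ogn was -3.90 ± 0.33 in MDA-MB-231 EV and -3.74 ± 0.74 in MCF-10A EV, and Fmod to Prelp was 3.12 ± 0.43 in MDA-MB-231 EV and 2.40 ± 0.50 in MCF-10A EV.

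Of the 11 ratios examined, that of Prelp to Aspn, on different chromosomes, had the smallest SD in both groups. It was not among the pairs planned, which were genomic neighbours and Bgn to Dcn. It was 1.74 ± 0.18 (SD, n = 5) in MDA-MB-231 EV and 1.86 ± 0.14 (SD, n = 4) in MCF-10A EV. Bgn to Dcn, the class I pair, was -2.21 ± 0.28 in MDA-MB-231 EV and -2.82 ± 0.26 in MCF-10A EV, with MDA-MB-231 EV replicate 2 at -2.68 inside the MCF-10A EV range. All 11 ratios overlapped between the groups. Some members share bases with genes on the other strand, and whether reads were counted by strand is not stated. Cenpp overlaps Aspn, Omd and Ogn with a mean of 20.2 counts per library, against 52.2 for Omd, so Omd is the most exposed. Acsf2 overlaps Chad with a mean of 131 counts, against 1720 for Chad.

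The members also varied among the libraries of a group, and some of them varied with the tendon markers. Relations were computed on log2 CPM after subtracting each group's mean, over 9 libraries, with exact permutation of libraries inside the groups (2880 arrangements, smallest possible p 0.000347). There were 65 relations, 20 with marker scores and 45 between members, and none had an adjusted p under 0.05. Chad followed the tendon score with Pearson r = 0.986 (exact permutation p = 0.00347, adjusted 0.120) and Spearman rho = 0.917 (exact permutation p = 0.00868, adjusted 0.186). Without MCF-10A EV replicates 1 and 3, the libraries farthest out on the tendon score, r was 0.960.

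Fmod followed the tendon score with r = 0.916 (exact permutation p = 0.00556, adjusted 0.120) and rho = 0.783 (exact permutation p = 0.00625, adjusted 0.186). Without the same pair of libraries its r was 0.595, so much of that relation rests on them. Bgn had r = 0.153 (exact permutation p = 0.782, adjusted 0.889) and rho = 0.25 (exact permutation p = 0.581, adjusted 0.822) with the tendon score. MCF-10A EV replicate 1, lowest in Chad, Fmod, Kera, Aspn, Omd and Dcn within its group, was second highest of its group in Bgn. Dcn had r = 0.590 (exact permutation p = 0.0448, adjusted 0.245) and rho = 0.717 (exact permutation p = 0.0514, adjusted 0.304) with the tendon score. Its r was 0.452 without the 2 farthest libraries. Kera and Omd had r = 0.811 and 0.745 (exact permutation p = 0.119 and 0.118, adjusted 0.362 for both), and 0.560 and 0.543 without those libraries. Aspn and Prelp had r = 0.800 and 0.720 with the tendon score (exact permutation p = 0.0444 and 0.0424, adjusted 0.245 for both). Their rho was 0.867 for both (exact permutation p = 0.0448 and 0.0306, adjusted 0.304 and 0.282), and r was 0.784 and 0.787 without the 2 farthest libraries. Lum had r = -0.217 (exact permutation p = 0.612, adjusted 0.872) and rho = -0.4 (exact permutation p = 0.251, adjusted 0.604), with r at -0.785 without those libraries. With the fibroblast score, Bgn had r = 0.594 (exact permutation p = 0.114, adjusted 0.362) and rho = 0.683 (exact permutation p = 0.0847, adjusted 0.419). Ogn had r = -0.569 and Lum r = 0.510 with that score (exact permutation p = 0.207 and 0.165, adjusted 0.516 and 0.429). Dcn, Fmod, Prelp, Aspn, Omd, Kera and Chad had r between -0.470 and -0.147 (exact permutation, adjusted p 0.749 to 0.902). Among pairs of members, Aspn and Prelp varied together with r = 0.948 (exact permutation p = 0.00521, adjusted 0.120) and rho = 0.917 (exact permutation p = 0.0115, adjusted 0.186), and r was 0.858 when MCF-10A EV replicate 2 and MDA-MB-231 EV replicate 1 were left out. The part of tendon and fibre content in the differences between the groups was not tested.

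**Figure D4:**
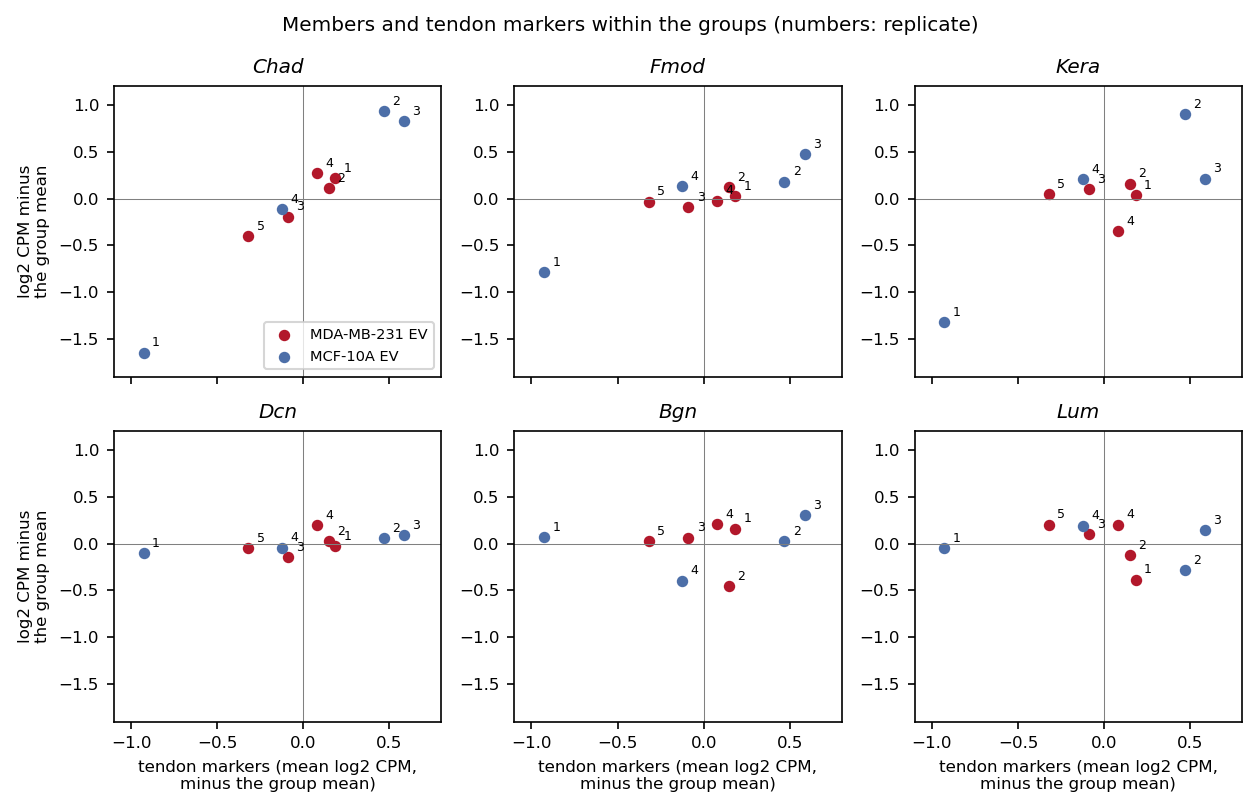
Log2 CPM of 6 members, each minus its group mean, against the mean log2 CPM of 9 tendon markers, also minus the group mean; points are libraries numbered by replicate. Chad and Fmod are low where the tendon markers are low (MCF-10A EV replicate 1) and high where they are high (replicates 2 and 3), while Bgn, with r = 0.153, does not follow them.

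The genes most like a member, by the same group-centred Pearson r over 9 libraries, differed from member to member. For Bgn they were Frmd6 (r = 0.974), Plod3 (0.959), Tnxb (0.945), Thbs3 (0.935) and Tram2 (0.934), and 13 genes had an r over 0.9. Plod3 is a collagen lysyl hydroxylase, Tnxb encodes tenascin X and Thbs3 a thrombospondin. For Fmod they were Slco5a1 (0.969), Slc25a17 (0.967), Myo19 (0.959), Lrrn1 (0.958) and Trappc12 (0.948), with 39 genes over 0.9. For Dcn they were Tmem234 (0.945), Amn1 (0.913), Kti12 (0.911), Dnmt3b (0.908) and Cpne8 (0.898), with 5 genes over 0.9, predicted and unnamed genes included. With 9 libraries and 13901 genes, such values describe these libraries only.

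Of 8 further genes of the family, 4 passed the count filter and all had log2 fold changes above 0, with a median of 0.42. Chadl, a relative of Chad, was at 0.71 ± 0.28 (SE), Tsku at 0.52 ± 0.23, Podn at 0.32 ± 0.16 and Ecm2, the neighbour of Aspn, at 0.22 ± 0.12. None passed in edgeR (adjusted p 0.329 to 0.455). Epyc, Optc, Nyx and Podnl1 were under the filter.

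No gene of the pathway lists that follow passed in edgeR in either direction. Genes named from each list are among those with its smallest p, which favours calls and groups without overlap. Of all tested genes, 2.22% lay higher in every MDA-MB-231 EV library and 3.17% lower. DESeq2 called 0.765% higher and 2.3% lower of those with an adjusted p. Of 5 tested enzymes of the linker that joins chain to core protein, 3 were above 0, with a median log2 fold change of 0.17, and B4galt7 was at 0.37 ± 0.17 (SE). Leaving out MCF-10A EV replicate 1 or 3 gave medians of 0.0016 and 0.26. Of 15 tested enzymes of chondroitin and dermatan sulphate, 13 were above 0, with a median of 0.18. Chst12, a chondroitin sulphotransferase, was at 0.32 ± 0.12, the chondroitin polymerising factors Chpf2 and Chpf at 0.37 ± 0.14 and 0.34 ± 0.13, and Csgalnact2, which starts the chain, at -0.28 ± 0.13. Of 4 tested enzymes of keratan sulphate, the chain of Fmod and Lum, 2 were above 0, with a median of 0.14, and B4galt1, a galactosyltransferase, was at -0.30 ± 0.11. Leaving out MDA-MB-231 EV replicates 1, 3 or 4 gave medians of 0.21, 0.048 and 0.058, and leaving out MCF-10A EV replicates 3 or 4 gave 0.036 and 0.27.

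The collagens to which these proteoglycans bind were all above 0, in 14 of 14 tested genes, with a median log2 fold change of 0.36. Leaving out MDA-MB-231 EV replicate 3 gave a median of 0.23, and leaving out MCF-10A EV replicates 2 or 4 gave 0.56 and 0.21. Col14a1, whose product sits on fibril surfaces, was at 0.57 ± 0.22 (SE), Col2a1 at 0.89 ± 0.38 and Col1a2, a chain of collagen I, at 0.64 ± 0.35. Of 11 tested genes that modify and crosslink collagen, 9 were above 0, with a median of 0.08. This value turned on single libraries, being 0.044 and 0.15 without MDA-MB-231 EV replicates 1 and 2, and 0.33, 0.13 and 0.018 without MCF-10A EV replicates 2, 3 and 4. The lysyl oxidase Loxl3 was at 10.9 ± 0.880 CPM (SD, n = 5) in MDA-MB-231 EV and 8.02 ± 1.60 CPM (SD, n = 4) in MCF-10A EV, with no overlap. The lysyl hydroxylase Plod2 was at a log2 fold change of 0.47 ± 0.19. None of these collagen genes passed in edgeR.

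Among proteases and enhancers that process the family or its collagen partners, 9 of 12 tested genes were above 0, with a median of 0.29. Bmp1, the protease that cuts the propeptides of biglycan and of fibrillar collagens, was at 47.9 ± 4.94 CPM (SD, n = 5) in MDA-MB-231 EV and 35.0 ± 5.67 CPM (SD, n = 4) in MCF-10A EV. Its log2 fold change of 0.45 ± 0.12 (SE) passed in DESeq2 (adjusted p = 0.0483) and not in edgeR (adjusted p = 0.260). Pcolce2, an enhancer of that protease, was at 21.8 ± 1.61 CPM (SD, n = 5) in MDA-MB-231 EV and 14.7 ± 3.91 CPM (SD, n = 4) in MCF-10A EV, with no overlap (edgeR adjusted p = 0.260, DESeq2 adjusted p = 0.0492). The related enhancer Pcolce had a log2 fold change of 0.37 ± 0.13 and the gelatinase Mmp2 one of 0.33 ± 0.12.

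TGF-beta is the growth factor that decorin, biglycan and fibromodulin bind. Of 10 tested ligands, latency proteins and receptors, 7 were above 0, with a median log2 fold change of 0.21. Tgfb1 was at 14.0 ± 1.39 CPM (SD, n = 5) in MDA-MB-231 EV and 9.79 ± 1.60 CPM (SD, n = 4) in MCF-10A EV, with no overlap. The latent TGF-beta binding protein Ltbp4 was at 388 ± 31.4 CPM (SD, n = 5) in MDA-MB-231 EV and 259 ± 69.6 CPM (SD, n = 4) in MCF-10A EV, and these groups overlapped. DESeq2 called Tgfb1, Ltbp4 and the co-receptor Tgfbr3 (adjusted p 0.0221, 0.0260 and 0.0298), while edgeR called none (adjusted p 0.252 to 0.260). Over all genes with a DESeq2 adjusted p, 0.765% were called higher. Tgfbr1, the type I receptor, had a log2 fold change of -0.36 ± 0.11 (SE) and lay lower in every MDA-MB-231 EV library (edgeR adjusted p = 0.284). Of 10 TGF-beta target genes, 9 were above 0, with a median of 0.28 (0.44 when replicate 3 of MCF-10A EV was left out), among them Postn at 0.47 ± 0.15 and Smurf1 at 0.32 ± 0.11.

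Of 15 receptors and membrane proteins bound by the family, 8 were above 0, with a median log2 fold change of 0.016, beside 0.020 for all tested genes. Tlr4, a receptor for soluble biglycan, was at 4.03 ± 0.427 CPM (SD, n = 5) in MDA-MB-231 EV and 2.85 ± 0.431 CPM (SD, n = 4) in MCF-10A EV, with no overlap (edgeR adjusted p = 0.303). Of 21 other proteoglycans, 19 were above 0, with a median of 0.28. Prg4, lubricin of tendon and joint surfaces and also 1 of the tendon markers, was at 68.4 ± 21.8 CPM (SD, n = 5) in MDA-MB-231 EV and 33.1 ± 12.5 CPM (SD, n = 4) in MCF-10A EV (edgeR adjusted p = 0.280, DESeq2 adjusted p = 0.0218). Gpc1, a cell-surface heparan sulphate proteoglycan, was at a log2 fold change of -0.38 ± 0.15.

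The cell type marker lists are set beside these values. Of the 9 tendon markers 8 were above 0, with a median log2 fold change of 0.80, or 0.50 without MCF-10A EV replicate 1. The 0.80 is the value of Egr1, whose SE was 0.72. Comp was at 1.21 ± 0.35 (SE) and Tnmd at 0.87 ± 0.24, while Mkx was at 0.34 ± 0.28 and Cilp at 0.33 ± 0.29. Scx was the marker below 0, at -0.29 ± 0.25. Fibroblast markers had a median of 0.27 (9 of 12 above 0), or 0.14 when MCF-10A EV replicate 2 was left out. The median was 0.39 for endothelium (7 of 8 above 0), 0.30 for pericytes and smooth muscle (7 of 8), 0.16 for macrophages (6 of 7), 0.32 for Schwann cells and perineurium (8 of 8) and 0.52 for islets (5 of 5). The islet median is the value of Iapp, whose SE was 1.42, and Ins2 was at 0.38 ± 1.72, so no shift is read from it. The 4 tested cartilage and bone markers had a median of 0.57 but went both ways. Col9a1 was at -0.97 ± 0.38, Sox9 at 0.25 ± 0.29, Col2a1 at 0.89 ± 0.38 and Matn3 at 1.00 ± 0.76. The 10 listed summed to 6.65 to 13.5 CPM in MDA-MB-231 EV and 4.57 to 13.7 CPM in MCF-10A EV. Muscle fibre markers had a median of -0.20, with 3 of 10 above 0, and their summed CPM did not overlap between the groups. The markers differed in size of change. Myh4, a fast myosin, had means of 40407.5 CPM in MDA-MB-231 EV and 67144.4 CPM in MCF-10A EV, at -0.73 ± 0.17. Atp2a1 was at -0.42 ± 0.14, while Ckm was at -0.20 ± 0.13, Acta1 at -0.11 ± 0.12 and Myh2 at 0.27 ± 0.45. The sum is thus no measure of fibre content in general. Whether these shifts contribute to the members' differences was not tested.

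**Figure D5:**
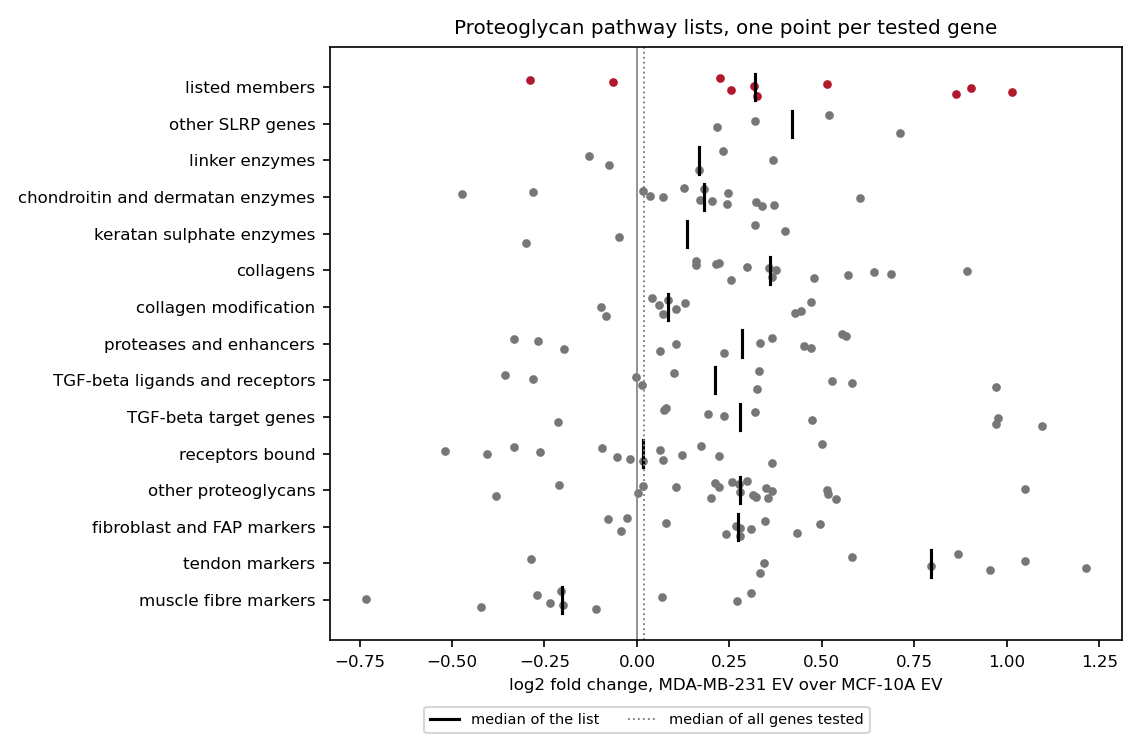
Log2 fold change, MDA-MB-231 EV against MCF-10A EV, for each tested gene of the lists, with a bar at each list's median and a dotted line at the median of all tested genes, 0.02. The 14 collagens all lie above 0, receptors bound by the family centre on the median of all genes, and muscle fibre markers centre below it.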

How the data were processed

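The authors deposited whole-number gene counts and FPKM per gene and library on mm10, per the file headers. Each FPKM value equals the deposited count divided by gene length and library total, within 0.1% for 100% of 161066 values. DESeq2, edgeR, TopHat, STAR 2.5 and HTSeq 0.6.1 appear with no role given, per the submitters' processing notes; the annotation release and counting strand are not given in the sources used here. Each numbered replicate was taken as 1 mouse, since the labels mention no pooling. From the file's gene IDs, 27 symbols that a spreadsheet had turned into dates were restored.

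The test was edgeR 4.0.16, quasi-likelihood, on the deposited counts (limma 3.58.1, R 4.3.3; TMM, filterByExpr with minimum count 10 and minimum total 15, robust, two-sided, group as the only term). P-values were adjusted over all 13901 tested genes. The biological coefficient of variation was 20.2%. DESeq2 1.42.0, limma voom, limma on log2(FPKM + 1) and log2(FPKM + 0.1), other scalings and filters, the replicate block and left-out libraries were alternatives. The fits were also run on simulated data, whose outcome is not reported here and is not used for any result. Relations used SciPy 1.17.1 in Python 3.11.15, and figures matplotlib 3.10.9.

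The members and gene lists were chosen with earlier results of these data known. All 10 members are named, and of each list up to 4 tested genes with the smallest p, together with the 5 genes most like Bgn, Fmod and Dcn, leaving out predicted and unnamed genes; some genes that this rule names are not reported here. Markers at or near 0 were named after their values were seen.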

Additional observations from a re-analysis of the deposited data

Results flagged for a closer look

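In 3 of the 20 combinations of member and group, 1 library lay far from the others by Dixon's test, which chance alone gives in about 1 group of 20. Prelp was at 208 CPM in MDA-MB-231 EV replicate 1, where the other 4 libraries of the group were at 99.2 to 115 CPM (gap over range 0.858, critical value 0.71). Aspn was at 33.8 CPM in the same library, where the others were at 19.9 to 23.8 CPM (gap over range 0.723). Kera was at 39.1 CPM in MDA-MB-231 EV replicate 4, where the others were at 51.1 to 55.6 CPM (gap over range 0.731).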

How the results depend on the processing

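DESeq2 called 228 genes, 1 of the 8 tested members (Lum) and 7 genes of the pathway lists, where edgeR called 0 of each. Leaving out each library in turn, edgeR called 0 to 2 genes, with the 2 appearing without MCF-10A EV replicate 4, and 0 members and 0 list genes each time. Prelp ranged from -0.023 to 0.48 and Ogn from -0.20 to 0.18. Of 210 member fold changes recomputed under 21 settings, 8 turned sign, all in Ogn, Prelp or Kera. Ogn turned to 0.078 with unscaled library sizes, 0.10 and 0.11 on log2(FPKM + 1) and log2(FPKM + 0.1), 0.18 without MCF-10A EV replicate 2 and 0.24 without both replicates 1 and 2. Prelp turned to -0.023 without MDA-MB-231 EV replicate 1 and to -0.020 in libraries with islet transcripts, where Kera was at -0.15. Of the list medians, that of bound receptors turned to -0.018 with the replicate block and to -0.023 in libraries with islet transcripts, and ranged from -0.047 to 0.11 over left-out libraries, being also below 0 without MDA-MB-231 EV replicates 3 (-0.0093) and 5 (-0.011). The median of linker enzymes was -0.0040 without both MCF-10A EV replicates 1 and 2, and that of keratan sulphate enzymes -0.23 in libraries without islet transcripts. The cause was not tested. Libraries of the 2 groups that share a replicate number had group-centred correlations of -0.30 to 0.080. Differently numbered libraries were not compared, so these values do not decide whether the numbers pair the libraries. With the replicate block over libraries 1 to 4 edgeR called 0 genes, 0 members and 0 list genes, with Bgn at 0.86 and Fmod at 0.98. Counts limit Omd most.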
